A study of Mus musculus with 2 samples.

Results

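The messenger RNAs of 10 chemokines and cytokines (Ccl3, Ccl4, Ccl5, Xcl1, Ifng, Tnf, Il17a, Il22, Il2 and Spp1) were followed through the immune cells of the proximal small intestine. They were chosen by gene symbol, as secreted effectors of lymphocytes, out of 31053 genes in the files, and all 10 were detected in both libraries. The 2 mice carried the villin-driven, tamoxifen-inducible Cre (VilCreER) and floxed Apc alleles (Apc fl/fl), received 2 tamoxifen injections of 2 mg with 24 h between them, and were sampled on day 4. The villin promoter places Cre in the intestinal epithelium, and the immune cells described here were not its target. Live cells were sorted by DAPI and sequenced with 10x 3′ v3 chemistry, in 1 library per mouse. Both libraries form 1 group, there was no library of mice that kept Apc, and each comparison is therefore between cell classes within the same mice.

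T cells that lie within the intestinal epithelium are known as intraepithelial lymphocytes. Many carry the γδ T cell receptor and store granzymes, and on stimulation T cells transcribe chemokines and cytokines within hours. CCL3, CCL4 and CCL5 attract leukocytes through chemokine receptors such as CCR1, and XCL1 attracts cross-presenting dendritic cells through XCR1. IFN-γ and TNF activate macrophages and epithelium, IL-2 is a T cell growth factor, IL-17A and IL-22 act on the epithelium in barrier defence, and osteopontin, the product of Spp1, binds integrins and CD44.

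The promoters of 4 members are shown because results below turn on them: Ccl3, which was found together with Ccl4 in single cells, Xcl1, which was high in a small set of Trdc T cells, and Il17a and Il22, which were found in few cells. Each window is 300 bases of the sense strand, 5′ to 3′, from RefSeq on GRCm38.p6, running from 250 bases before to 50 bases after the transcription start, at chr11:83649329-83649628 (minus strand), chr1:164935473-164935772 (minus strand), chr1:20730655-20730954 (plus strand) and chr10:118204714-118205013 (plus strand). Capitals mark matches on either strand to the TATA box (TATAAA), an AP-1 site (TGANTCA), an NF-κB site (GGGANNNNCC) or a nuclear receptor half-site (AGGTCA, read as TGACCT on the other strand).
Ccl3: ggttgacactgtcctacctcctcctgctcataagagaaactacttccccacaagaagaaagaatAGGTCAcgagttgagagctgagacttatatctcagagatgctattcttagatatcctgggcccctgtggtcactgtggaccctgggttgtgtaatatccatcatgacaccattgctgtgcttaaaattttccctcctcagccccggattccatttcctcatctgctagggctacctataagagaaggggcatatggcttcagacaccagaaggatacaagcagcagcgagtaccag
Xcl1: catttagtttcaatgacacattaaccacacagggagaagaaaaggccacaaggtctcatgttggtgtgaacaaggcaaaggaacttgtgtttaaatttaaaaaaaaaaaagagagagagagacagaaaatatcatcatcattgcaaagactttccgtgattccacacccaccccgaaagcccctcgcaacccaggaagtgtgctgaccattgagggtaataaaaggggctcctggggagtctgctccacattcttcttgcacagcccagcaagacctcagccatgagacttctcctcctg
Il17a: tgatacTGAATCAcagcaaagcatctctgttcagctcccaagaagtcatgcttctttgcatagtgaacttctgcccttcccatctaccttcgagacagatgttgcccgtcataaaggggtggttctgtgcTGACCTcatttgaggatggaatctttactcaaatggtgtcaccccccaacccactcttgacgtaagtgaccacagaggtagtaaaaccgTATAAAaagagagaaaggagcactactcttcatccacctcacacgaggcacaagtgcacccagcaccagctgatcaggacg
Il22: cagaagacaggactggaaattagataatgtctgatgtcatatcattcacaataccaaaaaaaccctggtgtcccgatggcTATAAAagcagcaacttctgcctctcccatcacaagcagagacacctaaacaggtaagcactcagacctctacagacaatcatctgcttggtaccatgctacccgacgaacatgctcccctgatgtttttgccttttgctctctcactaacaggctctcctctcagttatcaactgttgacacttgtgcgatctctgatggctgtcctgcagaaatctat
Among 32851 promoter windows of this length, 13.6% held TATAAA, 7.81% TGANTCA, 20.7% GGGANNNNCC and 16.3% AGGTCA. Il17a held TATAAA at -31, AGGTCA at -120 and TGANTCA at -244 from the start, and the matches did not overlap. Ccl3 held AGGTCA at -186, Il22 held TATAAA at -170, and Xcl1 held none of the 4 motifs in this window. Windows were found for 8 of the 10 members, those of Ccl4 and Ccl5 not among them. Ccl3 (chr11:83647844-83649355, minus strand) and Ccl4 (chr11:83662584-83664683, plus strand) lie 13228 bases apart, and Ccl5 (chr11:83525778-83530518, minus strand) lies 117325 bases from Ccl3 (GRCm38 annotation).

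The filters kept 7941 cells of mouse 1 (median 4381 UMIs, the unique molecular identifiers that count captured transcripts) and 6957 of mouse 2 (median 2803 UMIs). T cells, 2850 and 5194 in the 2 mice, were those with at least 2 UMIs of Cd3d, Cd3e and Cd3g. They were split by UMIs of Cd8b1 (483 and 292 cells), Trdc (1323 and 3056), Cd4 without Foxp3 (85 and 68) and Foxp3 (31 and 21). T cells with none of the 4 genes (876 and 1617) or with several (52 and 140) were kept apart. Trac, an αβ receptor gene, had a UMI in 50.7% and 49.5% of the Trdc T cells, so these are named by their rule and not as γδ cells, although Tcrg-C1 was detected in 70.1% and 77.6% of them against 8.07% and 18.5% of the Cd8b1 T cells. Foxp3 T cells had a Ctla4 UMI in 83.9% and 85.7% of cells. The innate lymphoid gate as first written held 7 and 9 cells and was too small. A wider one, chosen after the data were seen, took cells with no UMI of Cd3d, Cd3e, Cd3g or Trac and at least 2 of 12 innate markers (88 and 61 cells), of which 63.6% and 54.1% had a Trbc2 UMI, another αβ receptor gene. Trbc1 had a UMI in 51.1% and 55.7% of these cells and Tcrg-C1 in 40.9% and 29.5%. The name innate lymphoid therefore stands for this rule only. The 2 libraries shared 16 kept barcodes. Cells with markers of several lineages (838 and 280) entered no gate. Levels are counts of a gene scaled to a total of 1000000 UMIs for the gate (CPM), which is relative to all other RNA of these cells, and 95% intervals of counts and shares are exact and cover counting error only.

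Ccl5 was by far the most abundant member and belonged to T cells. It made up 2.19% and 2.11% of all UMIs of the Trdc T cells (21889 and 21068 CPM, 21478 ± 581, mean ± SD, n = 2 mice) and 1.78% and 1.84% of those of the Cd8b1 T cells (17798 and 18407 CPM, 18103 ± 430.4). A Ccl5 UMI was found in 98.4% of Trdc T cells in each mouse, and 93.0% and 89.4% of them held at least 10. T cells with none of the 4 subset genes stood at the same height, with 21736 and 20712 CPM. Together the T gates held 84.8% and 96.5% of the Ccl5 UMIs of all kept cells.

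Cd4 T cells carried less Ccl5, and did so unevenly. Their levels were 3253 and 8761 CPM (6007 ± 3895, n = 2 mice), and 21.2% and 39.7% of the cells held at least 10 UMIs. The make-up of this gate also differed between the mice. A UMI of Cd8a was found in 17.6% and 45.6% of its cells, and a UMI of the integrin gene Itgae in 18.8% and 45.6%. Whether this produced the uneven levels was not tested. In the Foxp3 T cells, which restrain immune responses, the levels were 1255 and 2221 CPM, with 1 cell holding 54.4% and 57.0% of the UMIs. Innate lymphoid cells had 1063 and 1597 CPM. The order Trdc and Cd8b1, then Cd4, then Foxp3 and innate lymphoid cells was found in each mouse, but the last 2 ranges overlapped.

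Outside T and innate lymphoid cells Ccl5 lay at a low level in all classes. B cells, taken with plasma and epithelial cells as the background from free RNA, had 97.3 and 116 CPM with a UMI in 28.2% and 24.4% of cells (median depth 3274 and 2322.5 UMIs), and plasma cells had 50.5 and 29.3 CPM with a UMI in 62.3% and 42.0% of cells (median depth 22116 and 20127). Macrophages had 115 and 44.0 CPM, monocytes 145 and 64.9 and dendritic cells 44.9 and 62.2. A Ccl5 UMI was found in 118 of 407 and 54 of 253 macrophages, 34.8% and 31.4% of monocytes and 48.5% and 36.4% of dendritic cells, at median depths of 2459 to 14591 UMIs. In mouse 1 the richest macrophage held 53 and the richest monocyte 23 Ccl5 UMIs, and without these cells the levels were 87.9 and 100.3 CPM.

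**Figure D1:**
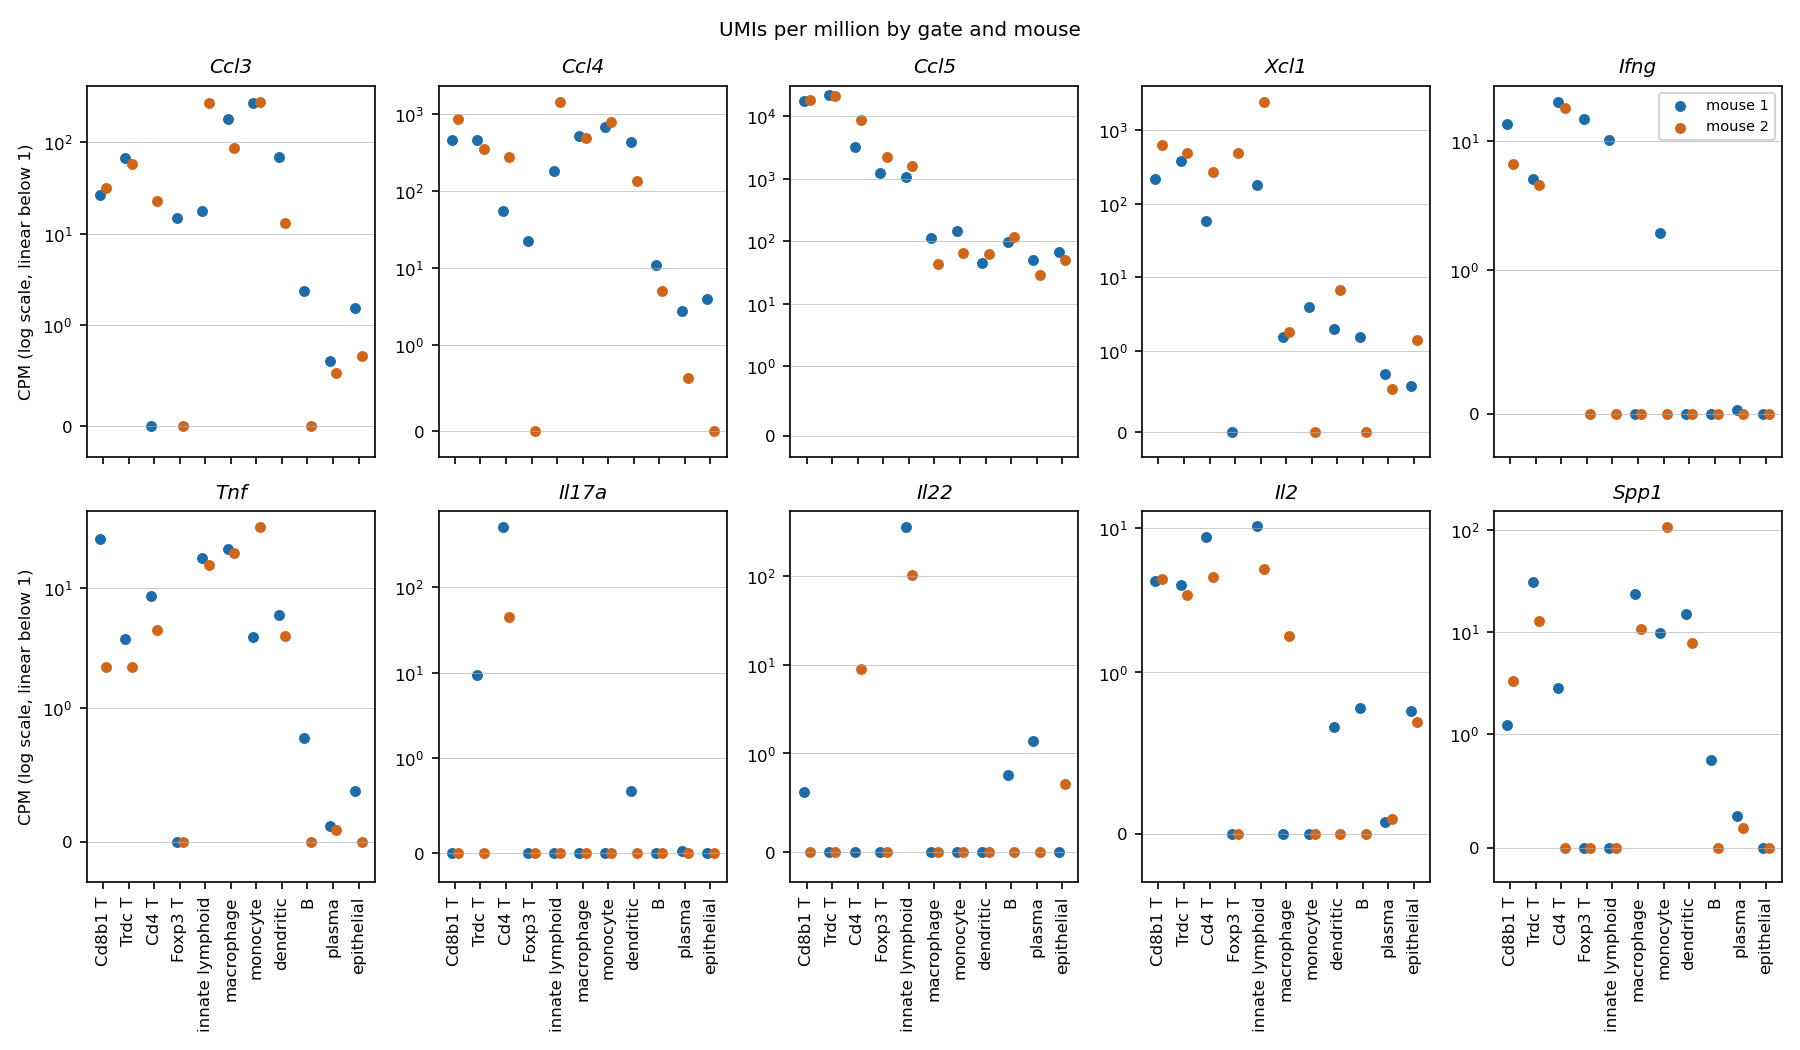
Level of each member by gate. The vertical axis gives CPM on a log scale that is linear below 1, the horizontal axis gives the gates, and each point is 1 mouse (n = 2). Ccl5 lies between 17798 and 21889 CPM in Cd8b1 and Trdc T cells, Ccl3 and Ccl4 are also high in macrophages and monocytes, Il22 stands out in the innate lymphoid gate and Il17a in Cd4 T cells.

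Ccl4 was shared by T cells and myeloid cells. Monocytes had 689 and 796 CPM (743 ± 75.5, n = 2 mice) and macrophages 514 and 487 CPM (501 ± 19). Cd8b1 T cells had 455 and 852 CPM (654 ± 281) and Trdc T cells 463 and 351 CPM (407 ± 78.6). The Cd8b1 range took in those of macrophages and monocytes and overlapped with that of Trdc T cells, so its place in the order is not resolved. Both Trdc values lay below both macrophage values, but 1 macrophage held 181 of the 819 macrophage Ccl4 UMIs of mouse 2. This order is therefore not taken as resolved either. The richest monocyte held 103 of 353 monocyte Ccl4 UMIs in mouse 1 and 204 of 638 in mouse 2. A Ccl4 UMI was found in 43.9% and 28.4% of Cd8b1 T cells and 33.6% and 27.7% of Trdc T cells, and in 3.16% and 1.22% of B cells. After each cell was thinned to 1000 UMIs the Cd8b1 shares were 23.2% and 15.3% and the Trdc shares 16.0% and 14.1%.

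Few cells made most of the Ccl4 message. In Trdc T cells the 33 and 45 cells with at least 10 UMIs held 64.7% and 56.9% of the Ccl4 UMIs. In mouse 2, 1 Cd8b1 T cell held 479 of 775 UMIs, and without it the Cd8b1 level fell to 327 CPM. In Cd4 T cells, with 54.7 and 280.4 CPM, 1 cell held 63.2% and 75.8% of the UMIs. The Foxp3 T cells had 22.3 and 0 CPM, from 3 UMIs in 1 cell.

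Ccl3, whose product shares receptors with CCL4, was a gene of monocytes and macrophages first. Its levels were 268 and 276 CPM in monocytes (272 ± 5.81, n = 2 mice), 181 and 86.9 in macrophages and 70.0 and 13.2 in dendritic cells. The richest monocyte held 63 of the 137 monocyte Ccl3 UMIs of mouse 1 and 51 of the 221 of mouse 2. The richest macrophage held 48 of 356 and 29 of 146. The SD does not cover this weight of single cells, and no order between monocytes and macrophages is read from these levels. Trdc T cells had 68.2 and 58.4 CPM (63.3 ± 6.91) and Cd8b1 T cells 26.4 and 31.9 CPM (29.2 ± 3.87), and these ranges did not overlap. B, plasma and epithelial cells were at or below 2.33 CPM in each mouse.

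Ccl4 exceeded Ccl3 in each class named here, by unequal factors. Cd8b1 T cells held 17.2 and 26.7 Ccl4 UMIs for each Ccl3 UMI, and Trdc T cells held 6.79 and 6.02. In monocytes the ratio was 2.58 and 2.89, in macrophages 2.85 and 5.61, and in dendritic cells 6.17 and 10.2, which overlaps with the Trdc values. Without the cell richest in Ccl4 the Cd8b1 ratios were 16.2 and 12.3. These ratios were not tested.

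Xcl1 was nearly absent from myeloid cells and was found in T and innate lymphoid cells. Trdc T cells had 382 and 484 CPM (433 ± 72.3, n = 2 mice), with a UMI in 20.7% and 24.7% of cells. Cd8b1 T cells had 215 and 625 CPM, with 43.8% of the UMIs of mouse 2 in 1 cell and 353 CPM without it. Macrophages, monocytes and dendritic cells lay between 0 and 6.61 CPM, and B, plasma and epithelial cells at 1.56 CPM or below.

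In the smaller lymphocyte gates Xcl1 was again a matter of single cells. Cd4 T cells had 57.5 and 271 CPM, and 46 of the 60 UMIs of mouse 2 were in 1 cell. Foxp3 T cells had 0 and 485 CPM, with 34 of 36 UMIs in 1 cell. Innate lymphoid cells had 181 and 2381 CPM, and in mouse 2 1 cell held 436 of 462 UMIs. Without each mouse's richest cell the innate lymphoid levels were 115 and 140.3 CPM. That cell of mouse 2, with 8777 UMIs in all, also held 272 of the 275 Ccl4 UMIs and 50 of the 52 Ccl3 UMIs of its gate.

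**Figure D2:**
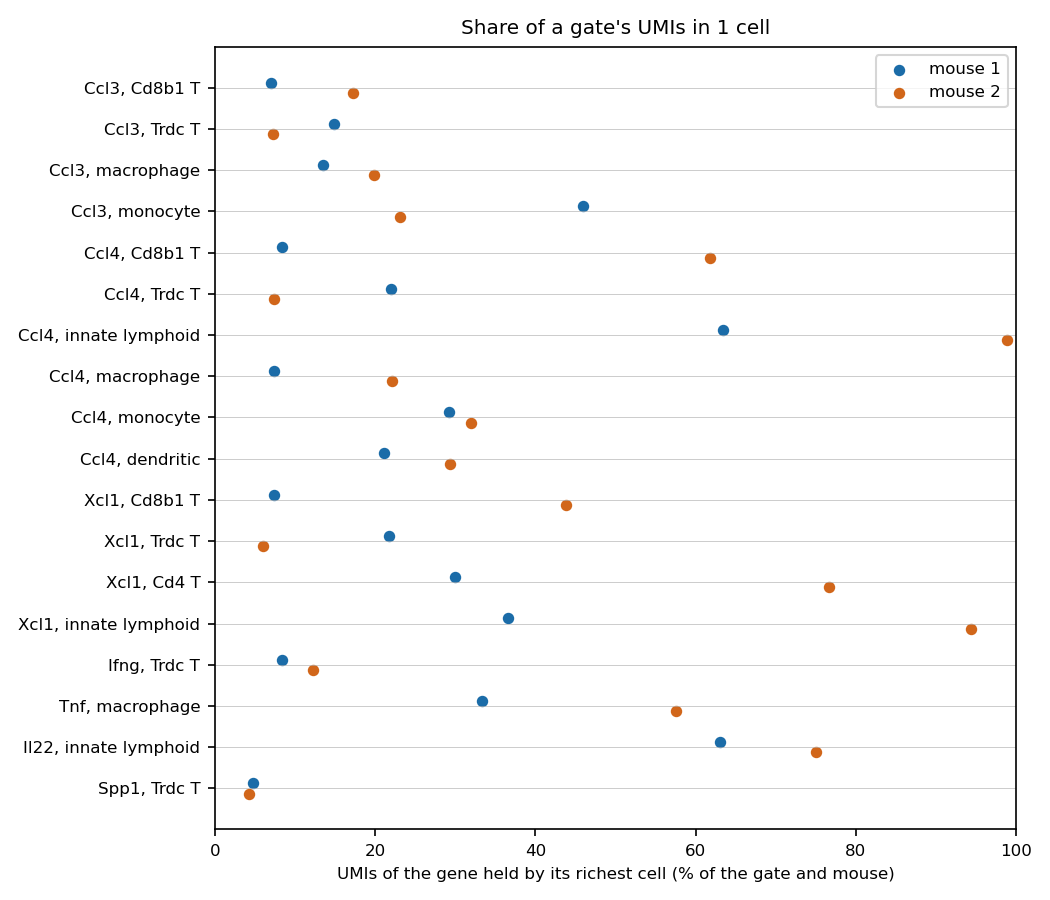
Share of a member's UMIs held by the single richest cell of a gate. The horizontal axis is percent of the UMIs of that gate and mouse, and each point is 1 mouse. Spp1 in Trdc T cells is spread over many cells (4.76% and 4.27% in the richest), whereas 98.9% of Ccl4 and 94.4% of Xcl1 in the innate lymphoid gate of mouse 2 come from 1 cell.

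Ifng, the cytokine of type 1 responses, was sparse. Cd4 T cells had 20.1 and 18.1 CPM (7 and 4 UMIs), Cd8b1 T cells 13.5 and 6.60 (22 and 6 UMIs) and Trdc T cells 5.06 and 4.54 (24 and 41 UMIs). The exact intervals of the Cd4 level (8.10 to 41.5 and 4.93 to 46.3 CPM) overlapped with those of the Cd8b1 T cells (8.47 to 20.5 and 2.42 to 14.4 CPM). The 3 myeloid gates held 1 Ifng UMI in all, and B and epithelial cells held 0, which allows up to 0.862% and 3.66% of B cells to have had a UMI.

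Tnf was found at low levels in both lymphoid and myeloid cells. Macrophages had 21.3 and 19.6 CPM (42 and 33 UMIs), with 14 and 19 UMIs in 1 cell each. Innate lymphoid cells had 17.8 and 15.5 CPM (7 and 3 UMIs). Cd8b1 T cells had 25.8 CPM in mouse 1 (42 UMIs in 30 cells) and 2.20 in mouse 2 (2 UMIs), so the mice differed by more than counting error (18.6 to 34.9 against 0.266 to 7.95 CPM). Trdc T cells had 3.80 and 2.22 CPM, and Foxp3 T cells held no Tnf UMI. Monocytes had 3.91 and 32.4 CPM, with 22 of the 26 UMIs of mouse 2 in 1 cell.

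Il2 was near the limit of detection throughout. Its levels were 4.30 and 4.40 CPM in Cd8b1 T cells, 4.01 and 3.43 in Trdc T cells, 8.63 and 4.52 in Cd4 T cells and 10.2 and 5.15 in innate lymphoid cells, from 1 to 31 UMIs. No order of these levels is read from such counts. The 52 Foxp3 T cells held 0 Il2 UMIs.

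Il17a came from a handful of Cd4 T cells. They had 503 and 45.2 CPM, from 175 UMIs in 4 cells (104 in 1 of them) and 10 UMIs in 3 cells. All 4 cells of mouse 1 had a UMI of Il17f, the related cytokine gene, and 3 had Ccr6, a chemokine receptor gene. The 3 cells of mouse 2 had no Il17f UMI, and 1 had Ccr6. Trdc T cells had 45 UMIs in 1 of 1323 cells of mouse 1 and 0 UMIs in 3056 cells of mouse 2, which allows up to 0.0982% of those cells to have had a UMI. Cd8b1, Foxp3 and innate lymphoid cells held 0 Il17a UMIs in both mice. The T gates together held 254 of 274 and 11 of 11 Il17a UMIs.

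Most Il22 UMIs were in the innate lymphoid gate, 138 of 214 in mouse 1 (64.5%) and 20 of 37 in mouse 2 (54.1%). The level there was 351 and 103 CPM, from 138 UMIs in 13 cells (87 in 1 cell) and 20 UMIs in 4 cells (15 in 1 cell). Of these cells 6 of 13 and 3 of 4 had a UMI of Il23r, an IL-23 receptor gene that is among the 12 markers of the gate. The gate as first written, which allowed no UMI of any receptor chain, held 4 Il22 UMIs in 1 of 16 cells.

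Across both mice the innate lymphoid gate held 158 Il22 UMIs of 587232, and the 4 T gates held 3 of 17077458, a ratio of levels of 1532 (exact counting interval 515 to 7506). In mouse 1, a further 60 Il22 UMIs were in 4 plasma-gate cells, 57 of them in 1 cell, and in mouse 2 a further 13 were in ungated cells (35.1%). Il22 (chr10:118204942-118210047) has a near-identical copy, Iltifb (chr10:118289629-118295038), and their transcripts matched at 97.3% of 1111 aligned bases and at 94.7% of the last 300, where 3′ reads fall. Counts split between the pair are thus uncertain, and Iltifb itself had 8 UMIs in kept cells.

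Spp1 had a higher level in Trdc than in Cd8b1 T cells of both mice. Trdc T cells had 31.0 and 13 CPM, from 147 UMIs in 88 cells and 117 UMIs in 91 cells. Cd8b1 T cells had 1.23 and 3.30 CPM, from 2 and 3 UMIs, and Cd4 T cells 2.88 and 0 CPM. Foxp3 T cells and innate lymphoid cells held no Spp1 UMI, which for the 31 and 21 Foxp3 T cells allows up to 9.68% and 14.3% of cells. T cells with none of the 4 subset genes had 24.1 and 17.9 CPM. Macrophages, a known source of osteopontin, had 23.8 and 10.7 CPM, and monocytes 9.76 and 107, with 64 of the 86 UMIs of mouse 2 in 1 cell.

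Differences between classes were tested on UMIs summed per mouse and gate with edgeR's quasi-likelihood test and Benjamini-Hochberg adjustment over all genes tested. The p-values rest on the spread between 2 mice within a gate, pooled over all gates in the fit. Sums of the same mouse were treated as independent, except where the mouse was a block. They do not measure how a difference between gates varies from mouse to mouse. Between Cd8b1 and Trdc T cells, 0 of 8 members tested passed an adjusted p of 0.05, where 1.5% of 11702 genes did (0.453% higher and 1.05% lower), and 3 had an unadjusted p under 0.05 (DESeq2 called 0 of 8). These were Spp1 (log2 fold change -3.37 ± 1.02, edgeR adjusted p = 0.155, lower in Cd8b1 T cells of both mice), Tnf (2.44 ± 0.81, adjusted p = 0.216, 2.77 in mouse 1 and -0.01 in mouse 2) and Ccl3 (-1.10 ± 0.51, adjusted p = 0.521). For Spp1, the fit with the mouse as a block gave an adjusted p of 0.0574, and the fit without the richest cell of each gate gave 0.0416. Ccl5 (-0.22 ± 0.43), Ccl4 (0.69 ± 0.67) and Xcl1 (-0.04 ± 0.72) differed by about their standard errors or less.

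Against Cd4 T cells, Cd8b1 T cells had more Ccl5 and Ccl4 in each mouse, but again 0 of 8 members passed in edgeR, beside 0.162% of all genes, 0.0171% higher and 0.145% lower (3 members at an unadjusted p under 0.05, and 0 of 8 by DESeq2). The log2 fold changes were 1.67 ± 0.44 for Ccl5 (adjusted p = 0.174), 2.08 ± 0.72 for Ccl4 (adjusted p = 0.403) and 1.46 ± 0.79 for Xcl1 (adjusted p = 0.765). With the mouse as a block, Ccl5 passed at 1.64 (adjusted p = 0.0428). Il17a, with 0 UMIs in Cd8b1 and 185 in Cd4 T cells, is described by its counts only. Without the richest cells, Xcl1 stood at 2.12 (adjusted p = 0.0476).

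Between Foxp3 and Cd4 T cells, 0 of 8 members passed in edgeR, beside 0.128% of all genes, 0.0855% higher and 0.0427% lower (3 members at an unadjusted p under 0.05, and 1 of the 4 that DESeq2 tested). Ccl5 came nearest, at -1.97 ± 0.45 (adjusted p = 0.0911), and was lower in Foxp3 T cells of both mice (-1.61 and -2.16). With the mouse as a block it passed at -1.99 (adjusted p = 0.0181), and without the richest cells at -2.82 (adjusted p = 0.00816).

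Against the unweighted mean of the 4 T gates, innate lymphoid cells had less Ccl5. Of 9 members tested, 2 were called higher (Il22 and Ccl4) and 1 lower (Ccl5), beside 5.51% and 2.49% of 11333 genes (7.99% in either direction). Il22 entered the test only where the innate lymphoid gate was in the fit, so its call carries no weight, and the 158 against 3 UMIs above stand in its place. Ccl5 was lower (-2.76 ± 0.41, edgeR adjusted p = 0.000126, -2.76 and -2.72 in the 2 mice). Ccl4 was called higher (2.10 ± 0.64, adjusted p = 0.048), but the value was -1.10 (adjusted p = 1) when the richest cells of every gate were removed, which left 82 of 88 and 58 of 61 innate lymphoid cells. Likewise Ccl3 (2.41 ± 0.76, adjusted p = 0.057) was 0.81 and Xcl1 (1.97 ± 0.65, adjusted p = 0.0701) was 0.16 without the richest cells. With the mouse as a block Ccl3 and Xcl1 passed (adjusted p = 0.0467 and 0.0107).

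Macrophages, monocytes and dendritic cells, taken as a mean, differed from the T gates in 6 of 8 members tested, 3 higher and 3 lower, beside 27.3% and 20.4% of 11685 genes (47.7% in either direction), so a large share of all genes also differed. Ccl3 was higher (2.90 ± 0.39, edgeR adjusted p = 4.32e-06), as were Spp1 (4.30 ± 1.05, adjusted p = 0.00263) and Ccl4 (1.94 ± 0.43, adjusted p = 0.00102). Ccl5 (-6.36 ± 0.31, adjusted p = 7.52e-12), Xcl1 (-6.65 ± 0.67, adjusted p = 1.23e-07) and Ifng were lower. Ifng is given by its counts: the myeloid gates held 1 UMI and the T gates 106, a level 44.9 times higher in T cells (exact counting interval 7.89 to 1791). The T mean gives the Foxp3 T cells, which held 3 Ccl4 UMIs and no Spp1, the same weight as the other gates. Against the mean of the Cd8b1 and Trdc gates only, a choice made after the data were seen, Ccl4 differed by 0.16 (adjusted p = 0.789). Ccl3 (1.75, adjusted p = 0.000162) and Spp1 (2.11, adjusted p = 0.00721) were still higher than this mean. For Spp1 this mean includes the Cd8b1 T cells, which held 5 Spp1 UMIs in all. Mean Spp1 levels over the 2 mice were 21.99 CPM in Trdc T cells, 17.27 in macrophages and 11.56 in dendritic cells. Monocytes had 58.54 CPM, with 64 of their 91 UMIs in 1 cell. Myeloid cells were not tested against Trdc T cells alone. Tnf was at 2.90 ± 1.21 (adjusted p = 0.0567) and passed with the mouse as a block (2.99, adjusted p = 0.0283).

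**Figure D3:**
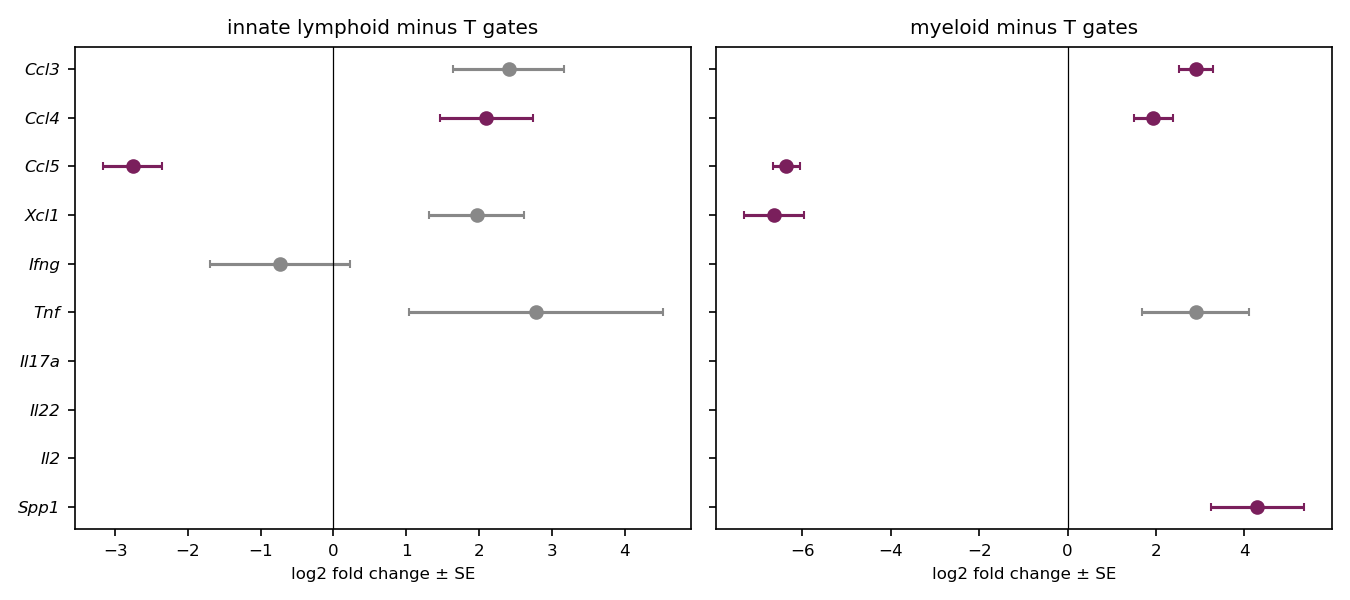
Log2 fold change ± SE of the members in innate lymphoid cells (left) and myeloid cells (right) against the mean of the 4 T gates, from edgeR on sums of 2 mice. Purple points passed an adjusted p of 0.05, grey points did not, and members with no point (Il17a, Il22 and Il2, Spp1 on the left and Ifng on the right) were not tested or had 3 UMIs or fewer on 1 side. Ccl5 lies at -2.76 on the left, and Ccl5 and Xcl1 lie at -6.36 and -6.65 on the right.

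In single cells some pairs of members were found together more often, and others less often, than independence gives. In Trdc T cells, 101 and 162 cells held UMIs of both Ccl3 and Ccl4, where independence among cells of like depth (10 equal groups of cells by UMIs) would give 68.3 and 99.8, a ratio of 1.48 and 1.62. Ccl4 and Ifng met in 15 and 19 cells against 7.99 and 9.61 (1.88 and 1.98). The same pairing of Ccl3 and Ccl4 was found in macrophages, in 46 and 23 cells against 29.8 and 12.4. These are descriptions over cells that share a library, and no test was run on them.

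Xcl1 went the other way in detection with Ccl4, Ccl3 and Spp1, though not in the level of Ccl4 in Xcl1-rich cells, given below. With Ifng it did not. Of the 23 and 31 Trdc T cells with an Ifng UMI, 43.5% and 32.3% had an Xcl1 UMI. The share was 20.3% and 24.6% in the Trdc T cells without Ifng. These shares were not taken at equal depth. In Trdc T cells Xcl1 and Ccl4 met in 63 and 168 cells against 99.4 and 226 (0.634 and 0.743), and Xcl1 and Ccl3 in 23 and 64 against 45.7 and 91.2 (0.503 and 0.702). The lowest ratio among the pairs drawn was that of Xcl1 and Spp1, 8 and 10 cells against 22 and 28.4 (0.363 and 0.352). In Cd8b1 T cells Xcl1 and Ccl4 met about as often as independence gives, in 80 and 21 cells against 74.8 and 23.2.

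**Figure D4:**
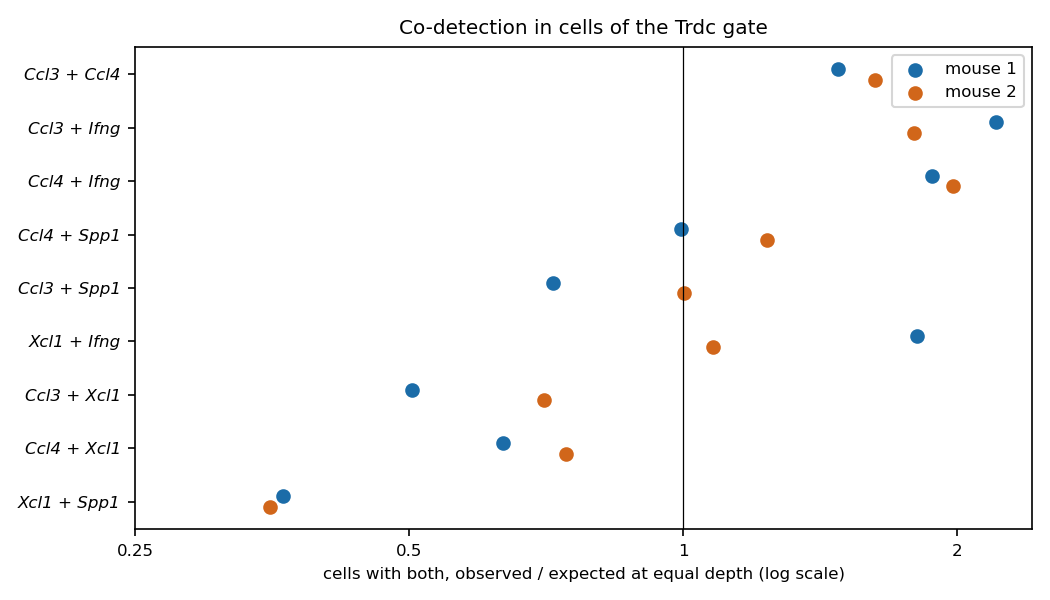
Co-detection of member pairs in Trdc T cells. The horizontal axis is the number of cells with both genes divided by the number given by independence at equal depth, on a log scale with 1 marked by the line, and each point is 1 mouse. Ccl3 and Ccl4 lie right of 1 (1.48 and 1.62), and Xcl1 lies left of 1 with Ccl3, Ccl4 and Spp1.

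Trdc T cells rich in Xcl1 had little of the usual cargo of these cells. The 32 and 72 cells with at least 10 Xcl1 UMIs had 4848 and 5732 CPM of Ccl5, against 25499 and 25212 CPM in the 1049 and 2301 Trdc T cells with no Xcl1 UMI. Gzma, a granzyme gene, had 2759 and 6519.7 against 24261 and 23928 CPM, and Gzmb a UMI in 9.38% and 30.6% of cells against 82.2% and 77.1%. Itgae, which encodes the integrin chain that binds E-cadherin, had 579.9 and 650.1 against 1034 and 1086 CPM. Ccl4 stood higher in the Xcl1-rich cells, at 3824 and 1578 against 319 and 258 CPM. Without the cell richest in Ccl4 their level was 1342 and 1082 CPM. A Ccl4 UMI was found in 15.6% and 29.2% of the Xcl1-rich cells against 36.4% and 29.5%. Ikzf2, frequent in Trdc T cells, was detected in 96.9% and 97.2% of the Xcl1-rich cells. These cells were deeper than those without Xcl1 (median 5190.5 and 4310.5 against 3202 and 2526 UMIs). Without the cell richest in Gzma its level in the Xcl1-rich cells was 1358 and 5764 CPM. The genes of these profiles were chosen after seeing the data, and no test was run.

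Ccl4-rich cells were high in granzymes. The 33 and 45 Trdc T cells with at least 10 Ccl4 UMIs had 30648 and 32167 CPM of Gzma against 17399 and 17485 in those without Ccl4, and 3784 and 3928 CPM of Gzmb against 1164 and 1189 (median depth 4747 and 3663 against 3242.5 and 2552 UMIs). Ccl3 stood at 640.4 and 901 against 35.0 and 29.1 CPM. Nr4a1, an early gene after antigen receptor signalling, had 134 and 277 against 7.58 and 4.30 CPM, and Egr1, another immediate early gene, 320.2 and 682 against 37.9 and 43.5 CPM. Both were also higher in the Xcl1-rich cells than in the cells with no Xcl1 UMI, with Nr4a1 at 57.5 and 78.3 against 12.7 and 5.98 CPM. In Ccl4-rich cells Xcl1 stood at 3295 and 4141 against 371 and 442 CPM, but 394 of the 566 Xcl1 UMIs of mouse 1 and 264 of the 777 of mouse 2 were in 1 cell each, and without it the levels were 1121 and 2799 CPM. Without the richest cell for each gene, Ccl3 in the Ccl4-rich cells was 374 and 711 CPM and Nr4a1 87.7 and 254 CPM, and Nr4a1 in the Xcl1-rich cells was 37.7 and 65.0 CPM.

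The Trdc T cells with Ifng or Spp1 also differed in level from the remainder of the gate. The 23 and 31 cells with an Ifng UMI had 9196 and 5533 CPM of Ccl4 against 292 and 287, and 5357 and 2362 CPM of Gzmb against 1463 and 1536. Of their Ccl4 UMIs 483 of 836 and 236 of 616 were in 1 cell, without which the levels were 4151 and 3516 CPM. The 88 and 91 cells with an Spp1 UMI had a UMI of Il2rb, a chain of the IL-2 and IL-15 receptors, in 88.6% and 86.8% of cells against 48.9% and 46.8%. The Spp1 cells were deeper (median 4197.5 and 3543 against 3305 and 2609 UMIs), which raises detection. Their Il2rb level was 627 and 718 against 293 and 306 CPM. Thy1, a surface protein of most peripheral T cells, was detected in 2.27% and 3.30% of the Spp1 cells against 14.0% and 11.3%, and Il7r in 3.41% and 0% against 16.0% and 8.06%.

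**Figure D5:**
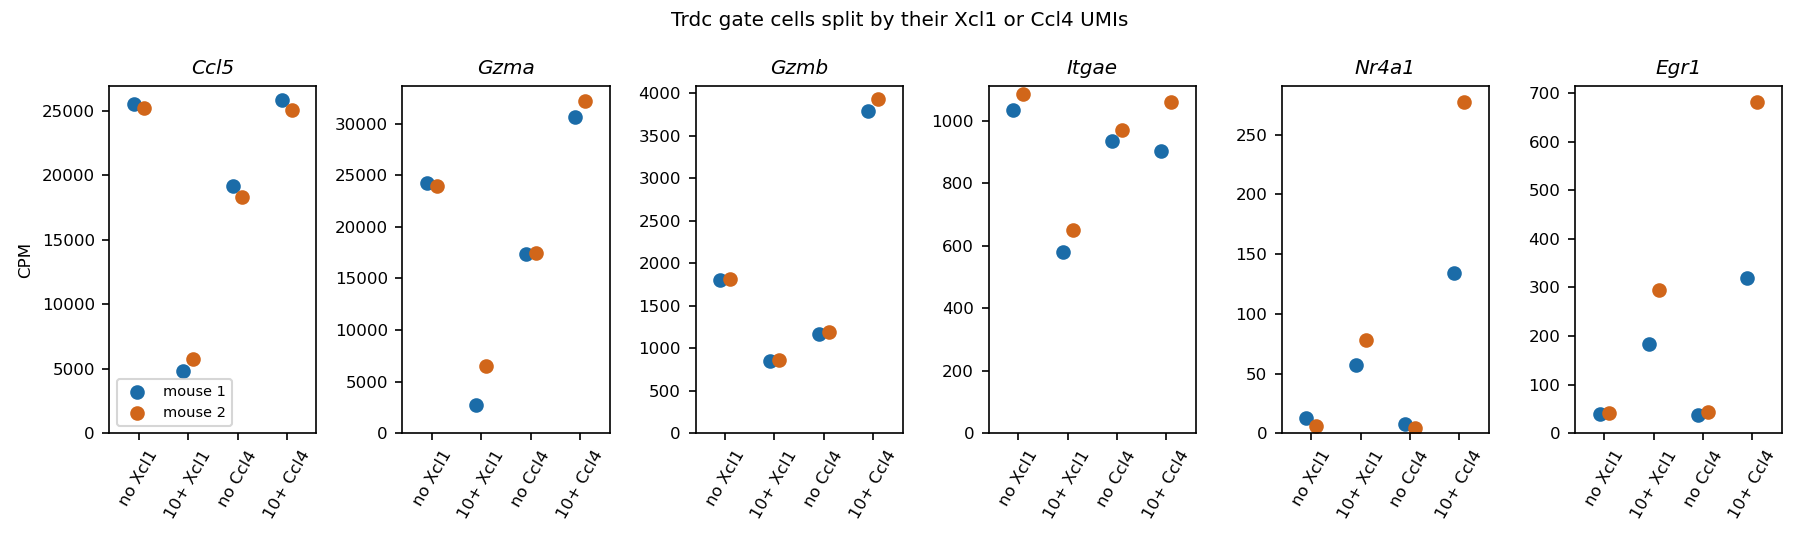
Levels of 6 genes in Trdc T cells split by their own Xcl1 or Ccl4 UMIs (none, or at least 10). The vertical axes give CPM from 0 and each point is 1 mouse. Cells with 10 or more Xcl1 UMIs have the lowest Ccl5 (4848 and 5732 CPM) and Gzma, and cells with 10 or more Ccl4 UMIs have the highest Gzmb, Nr4a1 and Egr1.

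Related genes were counted in 3 lists. Between Cd8b1 and Trdc T cells (0.453% of all genes higher, 1.05% lower), 0 of 28 other cytokines and chemokines were higher and 1 lower (Tnfsf8, the CD30 ligand gene, -1.93 ± 0.39, edgeR adjusted p = 0.0133). Of 19 receptors of the members, 1 was higher (the integrin gene Itga4, 1.03 ± 0.24, adjusted p = 0.0297) and 1 lower (Il2rb, -1.44 ± 0.33, adjusted p = 0.0309), and of 20 transcription factors 1 was higher (Rora, 1.48 ± 0.36, adjusted p = 0.0464). The median log2 fold changes of the 14, 15 and 19 list genes above 3 UMIs in each gate compared were -0.23, 0.16 and -0.15, beside -0.08 for all 10071 such genes. Against Cd4 T cells, Cd8b1 T cells had lower Tnfsf8 (-2.56, adjusted p = 0.0184) and lower Maf (-5.71 ± 0.72, adjusted p = 0.000585), a factor that drives Il10 and Il4, and 0 of 19 receptors passed in edgeR (6 at an unadjusted p under 0.05, 0 by DESeq2). Between Foxp3 and Cd4 T cells 0 genes of the 3 lists passed in edgeR, with 2 cytokines, 5 receptors and 3 transcription factors at an unadjusted p under 0.05, and DESeq2 called 0, 3 and 0 genes of these lists.

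In innate lymphoid cells, 5 of 31 other cytokines were higher and 2 lower than in the T gates, where 5.51% of all genes were higher and 2.49% lower. The 3 with the largest change were Csf2 (6.35, edgeR adjusted p = 0.0367), Il4 (4.99, adjusted p = 0.027) and Lta (4.37, adjusted p = 0.000284). These folds rest on 10, 11 and 46 UMIs in innate lymphoid cells and 48, 10 and 30 in the T gates, and they depend on the prior count where a gate held none. In the fit without this gate, 28 of the listed cytokines were tested. Some of the 31 thus passed the low-count filter only with the gate in the fit. Their count is therefore not weighed against the share of all genes. Lta was also tested in the fit without this gate. That was not established for Csf2 and Il4, so their adjusted p-values carry no weight and their UMIs stand in place of them. Of 19 receptors, 6 were higher and 1 lower, led by Il2ra (2.88, adjusted p = 2.32e-05), Itgb3 (2.58, adjusted p = 0.000338) and Itgb1 (1.47, adjusted p = 0.000552). Of 17 transcription factors, 5 were higher and 1 lower, led by Rora (2.75, adjusted p = 1.35e-06), Maf (2.42, adjusted p = 0.00037) and Fosl2 (1.80, adjusted p = 0.0208). The medians over the 7, 14 and 16 list genes above 3 UMIs in each gate were 0.51, 0.35 and 0.46, beside -0.07 for all 5941 such genes.

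In myeloid cells, 14 of 28 other cytokines were higher and 8 lower than in the T gates, where 27.3% of all genes were higher and 20.4% lower. Il1b (9.47), Cxcl2 (9.34) and Cxcl16 (9.30) had the largest changes. Of 18 receptors, 10 were higher, among them Ccr1 (8.64), a receptor of CCL3 and CCL5, and the integrin gene Itga9 (249 UMIs against 1 in the T gates), and 5 lower, among them Il2rb (-6.33). Of 20 transcription factors, 7 were higher and 9 lower, and the lower ones included Rora (-3.85) and Stat4 (-3.75). The medians over the 4, 13 and 16 list genes above 3 UMIs in each gate were -1.73, 0.57 and -0.48, beside -0.02 for all 5792 such genes.

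Over the 24 sums of mouse and gate, the genes with the pattern most like a member's were named by Pearson's r of log2(CPM + 1) among 11708 genes, as a description, since the sums share libraries and depth. Ccl5 was nearest to Gzma, Trgv2 and Actn2 (0.99 each). Ccl3 was nearest to Ccl4 (0.90), Nod1 (0.89) and Gcnt2 (0.88), and Ccl4 to Nod1 (0.92), Cd1d1 (0.91) and Gcnt2 (0.91). Spp1 was nearest to Htra3 (0.91), Relt (0.83) and Grk3 (0.83), and Il17a to Gm14718 (0.86), Ly6g5b (0.81) and Il17re (0.80). Xcl1 was nearest to Apol7b (0.98), Zfp773 (0.96) and Plod2 (0.96), Ifng to genes that include Zfp300 (0.92) and Klrb1f (0.91), and Tnf to Mitf (0.81), Rwdd2a (0.79) and Hs3st3b1 (0.79).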

How the data were processed

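Droplet libraries of 2 mice of 1 group were used. The authors deposited unnormalized UMI counts for each gene and barcode, which per the labels came from Cell Ranger 6.1.2 on mm10. The annotation release was not given in the sources used here, and gene positions are from a GRCm38 annotation. The libraries held 9645 and 8800 barcodes with 85670711 and 38716743 UMIs. Barcodes were kept above 100 genes and 400 UMIs, with mitochondrial UMIs below 5% and haemoglobin UMIs below 10%.

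Cells were classed by UMIs of marker genes, without clustering. The members and gene lists were chosen with earlier results of these data known. Scrublet (scanpy 1.11.5) called 1 cell in all and so did not work, and removal of the 8% of cells with the highest scores was an alternative. Counts were summed per mouse and gate, 24 sums over 11709 genes, and fitted in 1 model with edgeR 4.0.16 (R 4.3.3, TMM, filterByExpr, glmQLFTest, two-sided, Benjamini-Hochberg over all genes tested). Genes that define a compared gate were left out of the counts of genes after this adjustment. The innate lymphoid contrast used a second fit with the wider gate. DESeq2 1.42.0 was an alternative. Only edgeR was tested on simulated data, for the contrast of Cd8b1 and Trdc T cells. Other alternatives were no filter on low counts, the mouse as a replicate block, only the compared gates, other Cd3 limits (1 or 3 UMIs), a mitochondrial limit of 10%, mixed cells kept and single-mouse values. Fits without the cell richest in each member, levels without the richest cell and fits against the Cd8b1 and Trdc gates only were added after seeing the data. The sums of a mouse come from the same animal, so the block pairs them (deviations from gate means correlated at a median r of 0.24 over 66 pairs of gates, 0.069 to 0.70).

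The genes named were the members, the 3 genes per contrast and list with the largest change past the threshold, and the 3 genes most like each member with at least 20 UMIs. A few genes that these rules name are not reported here. Counting limits for a gene at 0 rest on 3 counts. Cells were thinned to 1000 UMIs to compare shares across depths.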

Additional observations from a re-analysis of the deposited data

Results flagged for a closer look

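Member UMIs were also found in barcodes that the filters removed, 3547 barcodes with 7852549 UMIs in all. They held 34167 Ccl5, 586 Ccl4, 500 Xcl1, 136 Ccl3, 81 Spp1, 24 Tnf, 16 Ifng and 9 Il2 UMIs, each above the 3 counts that a count of 0 allows. Iltifb, the near-identical copy of Il22, had 8 UMIs in kept cells. The mast cell gate, with 1 cell in each mouse, held 39 Ccl3 UMIs, 37 of them in 1 cell. The neutrophil gate held 19 Spp1 UMIs, all in 1 cell. These values were not used in any comparison and what produced them was not tested.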

How the results depend on the processing

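With 2 mice, leaving out either one leaves 1 sum per gate and no residual degrees of freedom, so the single-mouse values have no test and no gene counts were made from them. Between Cd8b1 and Trdc T cells, 53 genes were higher and 123 lower, against 100 and 128 with DESeq2 (43.9% higher against 30.1%), 95 and 297 when genes of low counts were not filtered out, 110 and 252 when the mouse was a replicate block, 138 and 171 with only the compared gates (44.7% higher) and 19 and 26 with mixed cells kept (42.2% higher). Between Cd8b1 and Cd4 T cells, 2 were higher and 17 lower, against 9 and 45, 61 and 108, 27 and 53, 1 and 18, and 1 and 6 under the same settings in that order, and 4 were higher without the richest cells. Between Foxp3 and Cd4 T cells, 10 were higher and 5 lower, against 40 and 11 with DESeq2 (78.4% higher against 66.7%), 74 and 64 with no filter, 27 and 11 with the replicate block and 6 and 3 with mixed cells kept. There 1 was lower with only the compared gates, 8 with at least 1 Cd3 UMI and 10 without the richest cells. Against the 2 abundant T gates 517 genes were lower in innate lymphoid cells in place of 282, and the median of all genes moved from 0 to -0.16 (from 0.09 to -0.13 for myeloid cells). Of 370 member values under tested alternatives, 330 kept direction and side of the threshold, 29 passed where the reported value had not, 4 no longer passed and 7 changed sign. With the fit without the richest cells included, Spp1 passed in 2 of 10 alternatives between Cd8b1 and Trdc T cells (lowest edgeR adjusted p = 5.91e-07). Ccl5 passed in 2 of 10 between Cd8b1 and Cd4 T cells (lowest edgeR adjusted p = 9.84e-13) and in 4 of 10 between Foxp3 and Cd4 T cells. That 0 of 8 members were called in these contrasts thus depended on the fit. All 4 lost calls were of Ccl4, in the innate lymphoid contrast with DESeq2 (2.24), with mixed cells kept (1.97) and against the 2 abundant gates (0.33), and in the myeloid contrast against the 2 abundant gates (0.16). No value that changed sign had passed, apart from Ccl4 in innate lymphoid cells without the richest cells (-1.10). Those between Cd8b1 and Trdc T cells were Xcl1 with DESeq2 or only the compared gates (0.04 each) and with at least 1 (0.01) or 3 (0.02) Cd3 UMIs, and Ccl3 with mixed cells kept (0.35). Those between Foxp3 and Cd4 T cells were Ccl3 with mixed cells kept (0.81) and Xcl1 without the richest cells (-2.77). Il17a between Cd8b1 and Trdc T cells without the richest cells, and Spp1 between Foxp3 and Cd4 T cells with the highest Scrublet scores removed, went to 0.00. Apart from the removal of single cells, the cause of these changes was not tested. The replicate block (the mouse) changed the side of the threshold for the members already given, with Ccl5 at 1.64 between Cd8b1 and Cd4 T cells, and for Il17a against Cd4 T cells, where the other gate held 0 UMIs, and for no other member. Of 82 single-mouse values, 53 stayed within the spread and 29 moved. Depth limits the sparse members, among them Ifng, Il2 and Tnf with 42 UMIs or fewer per gate and mouse.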
